A study of Arabidopsis thaliana with 6 samples.

Results

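The MLO genes encode plant membrane proteins named after the barley mildew resistance locus o. The 10 genes described here are MLO1, MLO2, MLO3, MLO4, MLO6, MLO8, MLO10, MLO11, MLO12 and MLO14. They were listed by locus identifier and chosen with earlier results of these data known. All 10 were present among the 27416 genes of the deposited expression table. Their RNA levels come from seedlings of wild-type Arabidopsis thaliana aged 7 days, with 3 control libraries that received water (ddH2O) and 3 libraries that received the CLE9 peptide at 200 nM, each group numbered 1 to 3. No exposure time is given in the sources used. CLE9 is a small secreted peptide perceived by receptor kinases. Both groups share the genotype, and the labels name no transgene. Nothing in the labels says that the 3 libraries per group are from different plants or cultures, so a p-value here reflects their spread alone, and that spread may be technical.

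MLO proteins span the plasma membrane several times and carry a calmodulin-binding stretch in the cytosolic tail. Loss of barley Mlo, or in Arabidopsis of MLO2 together with MLO6 and MLO12, blocks entry of powdery mildew fungi into the leaf epidermis, so these genes are known as susceptibility genes. Other MLO proteins act in tip growth, pollen tube reception and root bending upon touch, and several have been described as calcium channels. MLO2, MLO6 and MLO12 are close relatives, and the RefSeq gene notes place them in a clade with MLO3. They place MLO4, MLO11 and MLO14 in another, MLO1 with MLO13 and MLO15, and MLO8 and MLO10 with MLO5, MLO7 and MLO9.

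The stretch of 300 bases before the RefSeq gene start is printed for MLO12, MLO2 and MLO6, because these 3 genes were the members most different between the groups. All 3 genes lie on the minus strand, and the sequences are given 5′ to 3′ on the gene's strand, from RefSeq build TAIR10.1, at chr2:16359944-16360243 for MLO12, chr1:3804234-3804533 for MLO2 and chr1:22712290-22712589 for MLO6. Capitals mark the W-box, the DNA motif bound by WRKY transcription factors, searched as TTGACC and TTGACT on both strands.
MLO12: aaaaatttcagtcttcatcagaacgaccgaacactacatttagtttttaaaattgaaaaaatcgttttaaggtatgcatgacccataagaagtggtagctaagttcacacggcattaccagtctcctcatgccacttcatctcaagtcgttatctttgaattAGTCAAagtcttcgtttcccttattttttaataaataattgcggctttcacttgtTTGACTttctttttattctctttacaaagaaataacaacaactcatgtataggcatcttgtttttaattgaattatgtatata
MLO2: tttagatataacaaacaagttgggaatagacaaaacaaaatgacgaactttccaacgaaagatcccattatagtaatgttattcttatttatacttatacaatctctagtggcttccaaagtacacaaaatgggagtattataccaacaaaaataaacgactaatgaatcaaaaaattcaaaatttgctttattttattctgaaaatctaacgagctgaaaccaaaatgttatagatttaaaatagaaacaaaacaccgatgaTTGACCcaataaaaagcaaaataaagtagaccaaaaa
MLO6: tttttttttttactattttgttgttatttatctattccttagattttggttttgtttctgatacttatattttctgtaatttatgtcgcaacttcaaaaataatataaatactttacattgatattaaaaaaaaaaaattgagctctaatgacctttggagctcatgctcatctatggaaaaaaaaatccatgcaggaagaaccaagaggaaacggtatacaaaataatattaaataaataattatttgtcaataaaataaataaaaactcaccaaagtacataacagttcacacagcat

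The MLO12 stretch held TTGACT once on each strand, starting 138 and 83 bases before the RefSeq gene start. For MLO12, MLO2 and MLO6 the RefSeq start lies upstream of the start in the deposited table. Motif distances therefore do not apply to the table positions. The MLO2 stretch held 1 TTGACC, 37 bases before the start, and the MLO6 stretch held neither motif. A W-box was present in 4 of the 10 members (MLO12, MLO2, MLO3 and MLO8) and in 32.3% of 26718 genes of the table with a RefSeq entry. At least 2 W-boxes were present in MLO12 alone among the members and in 7.93% of those genes. The stress motif CGCGTT was present before MLO1, where its copies on the 2 strands overlap, before no other member, and before 3.09% of all genes. These matches describe letters in a window and say nothing of binding.

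The 10 genes lie on all 5 chromosomes. Gene positions below are those of the deposited table (build TAIR10, counted from 1). In RefSeq the members have up to 13 to 17 exons per transcript, and their longest reading frames encode 508 to 593 amino acids. Spliced transcripts of the 10 members shared no stretch of 50 bases with another MLO gene of Arabidopsis. MLO3 overlaps the gene IVD on the opposite strand by 1168 bases, and MLO10 overlaps AT5G65960 by 20 bases.

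Depth was estimated from the spacing of low values at 20520000 to 31920000 fragments per library, an approximate value. Replicate 2 of each group differed most from the remaining 4 libraries, along a first principal component with 71.0% of the variance. Seedling tissue was represented by 5 shoot markers with a summed level of 6959 to 23481 FPKM (fragments normalized to transcript length and library size, so that levels of different genes can be compared) and 6 root markers with 222 to 758 FPKM. The 4 seed and pollen markers were at 0.319 FPKM or less in every library, and the pollen gene VGD1 was listed at 0 in all 6.

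The comparison of CLE9 with water asks how MLO transcript levels differ when the peptide is supplied. MLO12, MLO2 and MLO6 were higher in all 3 CLE9 libraries than in any control, with means 4.56-fold, 3.18-fold and 5.70-fold those of the controls. MLO3 and MLO4 did not overlap between groups either, with smaller differences, and the groups overlapped for the other 4 tested members. Of the 9 members with a mean of 1 FPKM or more, 0 passed the limma test with group only, where 0.00561% of the 17812 genes tested were called (adjusted p under 0.05, Benjamini-Hochberg over all genes). In that fit 4 of the 9 had an unadjusted p under 0.05 (MLO2, MLO3, MLO6 and MLO12), against 8.9% of all genes. With the replicate number as a block (called blocked from here on), 1 of the 9 (MLO6) rose, where 1.99% of all genes were called and 1.75% were called higher. The groups did not overlap, with CLE9 higher, for 5 of the 9 members and for 8.51% of all genes tested. Counts of members are descriptions, since the members were chosen with earlier results known. With array weights, which count a library less the more it departs from its group, 5 of the 9 were called (MLO2, MLO3, MLO4, MLO6 and MLO12), where 27.4% of all genes were.

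**Figure D1:**
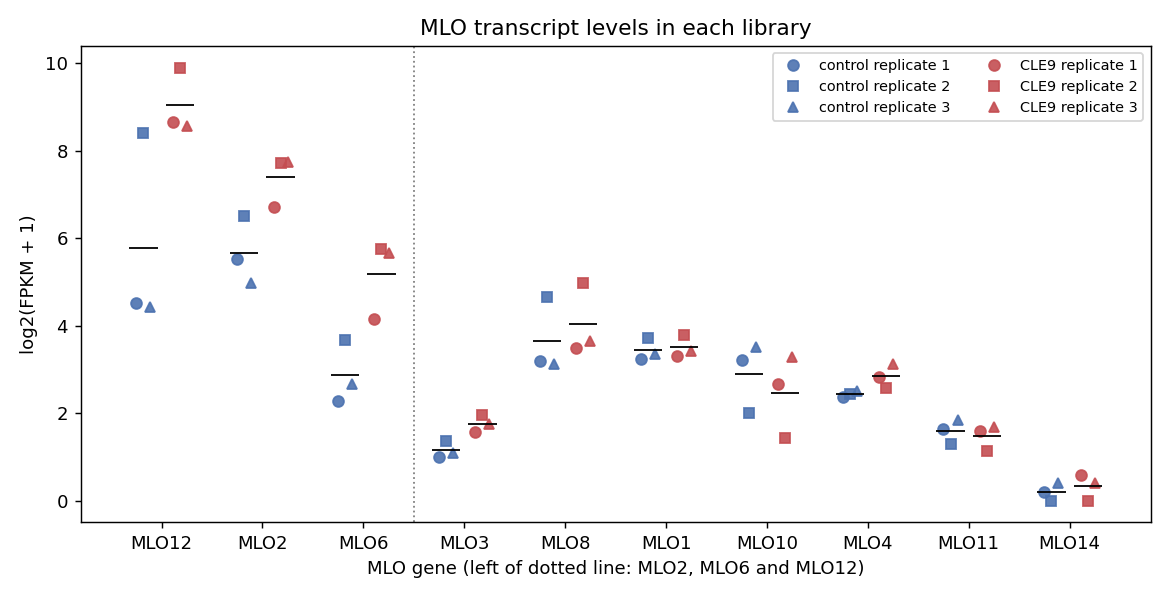
Level of each of the 10 MLO genes as log2(FPKM + 1) in each library, with colour for the group, symbol shape for the replicate number and a black line for the group mean. MLO12, MLO2 and MLO6 lie left of the dotted line, and in each of them all CLE9 libraries lie above all controls.

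MLO12 (AT2G39200, chromosome 2, minus strand, 16356148 to 16359813) was the most variable member. It was at 21.9, 337 and 20.6 FPKM in control replicates 1, 2 and 3. In CLE9 replicates 1, 2 and 3 it was at 399.9, 955 and 375 FPKM. Control replicate 2 was near the lower CLE9 libraries, the other controls were far below, and the groups did not overlap. The means were 126.5 ± 182 and 577 ± 328 FPKM (SD, n = 3 each). The log2 change (CLE9 less control, from log2 of FPKM + 1 throughout) was 3.25 ± 1.13 (SE, limma adjusted p = 0.485, or 0.0609 blocked).

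The size of the MLO12 difference depended on the libraries numbered 2. CLE9 was 18.3-fold above control in pair 1 and in pair 3, but 2.83-fold in pair 2. Which of libraries 1 and 3 belong together rests on their numbers alone, since they correlated as highly across numbers as within them. Without control replicate 2 the log2 change was 4.56 and MLO12 was called by limma (adjusted p = 0.0326, where 1.15% of all genes were called). That library held the highest control level, so leaving it out necessarily raised the change. Without any other single library MLO12 was not called (log2 change 2.58 to 3.49, limma adjusted p of 0.586 or more). Among all genes of a library ordered by FPKM, MLO12 ranked 4972 and 5204 in control replicates 1 and 3 and 295 in control replicate 2. It ranked 216, 71 and 229 in CLE9 replicates 1, 2 and 3.

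MLO2 (AT1G11310, chromosome 1, minus strand, 3800738 to 3804185), the main susceptibility gene of the 3, was at 44.8, 90.6 and 30.5 FPKM in water, against 103.7, 210.4 and 213 FPKM in CLE9. The lowest CLE9 library lay just above the highest control. The means were 55.3 ± 31.4 and 175.8 ± 62.5 FPKM (SD, n = 3 each), and the log2 change was 1.72 ± 0.49 (SE, limma adjusted p = 0.370, or 0.0818 blocked). The ratio was 2.32-fold in pair 1, 2.32-fold in pair 2 and 6.99-fold in pair 3.

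MLO6 (AT1G61560, chromosome 1, minus strand, 22708604 to 22712210), partly redundant with MLO2 in mildew entry, was the least abundant of the 3. It was at 3.81, 11.7 and 5.36 FPKM in water, against 16.9, 52.6 and 49.7 FPKM in CLE9. No CLE9 library fell within the control range. The means were 6.97 ± 4.20 and 39.7 ± 19.9 FPKM (SD, n = 3 each), and the log2 change was 2.32 ± 0.55 (SE) with group only (limma adjusted p = 0.305). With the block MLO6 rose, with the same change and a smaller error (2.32 ± 0.25, limma adjusted p = 0.0358). That error depends on how libraries 1 and 3 are paired, which rests on their numbers alone. The blocked call was lost without pair 1 (limma adjusted p = 0.236) and without pair 3 (0.251), where 0 of all genes tested were called. It held without pair 2 (0.00126), where 1870 of all genes tested were called.

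Without both libraries numbered 2, a comparison of 2 libraries with 2, limma called MLO12, MLO2 and MLO6 higher (adjusted p = 2.1e-04, 0.0256 and 0.0303) and none of the other 6 tested members. In that comparison 11.4% of all genes were called and 8.41% were called higher. The log2 changes there were 4.13, 1.98 and 2.44.

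MLO3 (AT3G45290, chromosome 3, plus strand, 16617544 to 16621370) was far less abundant, at 0.988, 1.58 and 1.14 FPKM in water, against 1.96, 2.89 and 2.37 FPKM in CLE9. All CLE9 libraries lay above all controls, and the ratio was 1.98, 1.83 and 2.07 in pairs 1, 2 and 3. The log2 change was 0.61 ± 0.20 (SE, limma adjusted p = 0.447, or 0.10 blocked). Strand use in the counting is not stated, so reads of the overlapping gene IVD, an enzyme of leucine breakdown, cannot be told apart from those of MLO3. IVD was at 86.2, 100.05 and 102.1 FPKM in water, against 47.9, 81.2 and 67.8 FPKM in CLE9, lower with CLE9 in each pair. The part of IVD reads in the MLO3 values was not tested.

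**Figure D2:**
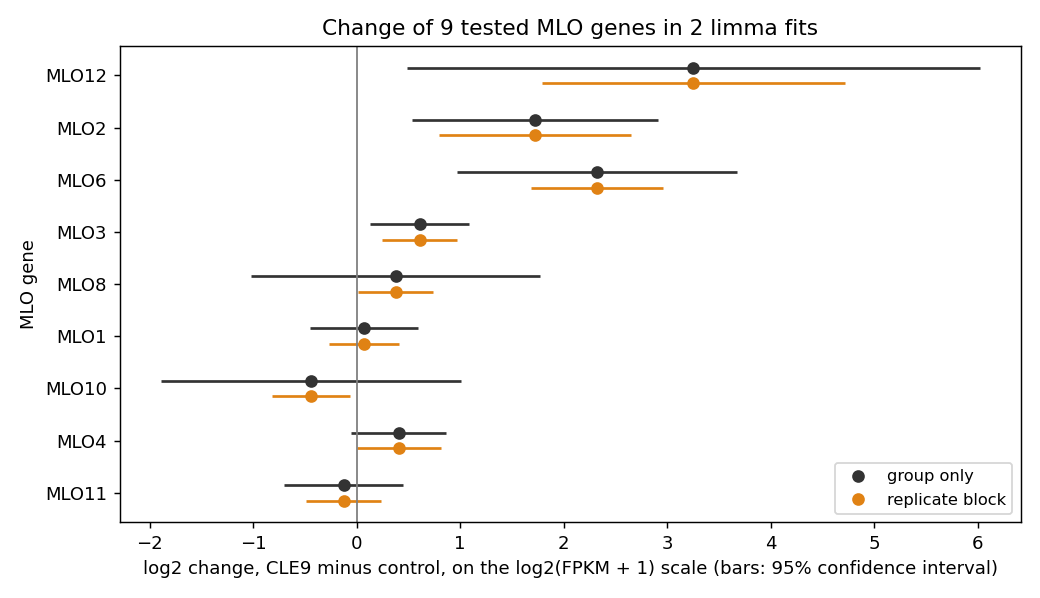
Log2 change (CLE9 minus control, log2(FPKM + 1) scale) of the 9 tested MLO genes with its 95% confidence interval, from limma with group only (black) and with the replicate number as a block (orange). The values for MLO12, MLO6 and MLO2 are 3.25, 2.32 and 1.72, and those of the other 6 lie between -0.44 and 0.61.

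MLO4 (AT1G11000, chromosome 1, minus strand, 3671756 to 3675979), which acts in root bending upon touch, was at 4.14, 4.44 and 4.65 FPKM in water, against 6.04, 4.98 and 7.76 FPKM in CLE9. Its groups did not overlap, although CLE9 replicate 2 lay close to the highest control. The log2 change was 0.41 ± 0.19 (SE, limma adjusted p = 0.613, or 0.243 blocked). MLO11 (AT5G53760, chromosome 5, plus strand, 21822486 to 21826451), which acts with MLO4, was at 2.13, 1.47 and 2.56 FPKM in water, against 1.99, 1.197 and 2.22 FPKM in CLE9, with overlapping groups. Its log2 change was -0.13 with a 95% interval from -0.70 to 0.45 (limma adjusted p = 0.918).

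MLO14 (AT1G26700, chromosome 1, plus strand, 9228235 to 9232240), of the same clade, had a mean under 1 FPKM and was not tested. It was at 0.140 and 0.319 FPKM in control replicates 1 and 3 and at 0.508 and 0.312 FPKM in CLE9 replicates 1 and 3. It was listed at 0 in replicate 2 of both groups. At the estimated depths a single fragment on 1 kb of transcript equals 0.0313 to 0.0487 FPKM.

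MLO1 (AT4G02600, chromosome 4, plus strand, 1143962 to 1147422) was nearly the same in both groups, at 8.38, 12.2 and 9.20 FPKM in water, against 8.88, 12.9 and 9.68 FPKM in CLE9, and the groups overlapped. The log2 change was 0.072 with a 95% interval from -0.45 to 0.59 with group only and from -0.27 to 0.41 with the block (limma adjusted p = 0.952 and 0.801). MLO8 (AT2G17480, chromosome 2, minus strand, 7590295 to 7594090) was at 8.07, 24.4 and 7.74 FPKM in water, against 10.2, 30.3 and 11.6 FPKM in CLE9. MLO10 (AT5G65970, chromosome 5, minus strand, 26387428 to 26390452) was at 8.27, 2.99 and 10.3 FPKM in water, against 5.36, 1.69 and 8.72 FPKM in CLE9. Both genes differed more between replicate numbers than between groups, and their groups overlapped. The log2 change was 0.38 ± 0.57 for MLO8 and -0.44 ± 0.59 for MLO10 (SE, limma adjusted p = 0.891 and 0.873, or 0.228 and 0.193 blocked).

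In control replicates 1 and 3 MLO2 was the most abundant member, followed by MLO12. MLO1, MLO8 and MLO10 came next, at 7.74 to 10.3 FPKM in these libraries, with MLO8 the lowest of them in both. Differences between these genes were not tested. MLO6 and MLO4 were lower, MLO11 and MLO3 lower again, and MLO14 was lowest. With CLE9, and in control replicate 2, MLO12 led and MLO2 followed. MLO6 came next after MLO2 in every CLE9 library, but was behind MLO1 and MLO8 in every control.

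The summed level of MLO2, MLO6 and MLO12 was 70.5, 439 and 56.5 FPKM in water, against 520.4, 1218 and 638 FPKM in CLE9. That of the other 7 members was 32.1, 47.0 and 35.9 FPKM in water, against 35.0, 53.9 and 42.6 FPKM in CLE9. The 3 genes thus made up 68.7%, 90.3% and 61.1% of the summed level of the 10 in controls and 93.7%, 95.8% and 93.7% with CLE9. MLO12 alone held 21.3%, 69.3% and 22.2% in controls and 72%, 75.1% and 55.1% with CLE9.

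**Figure D3:**
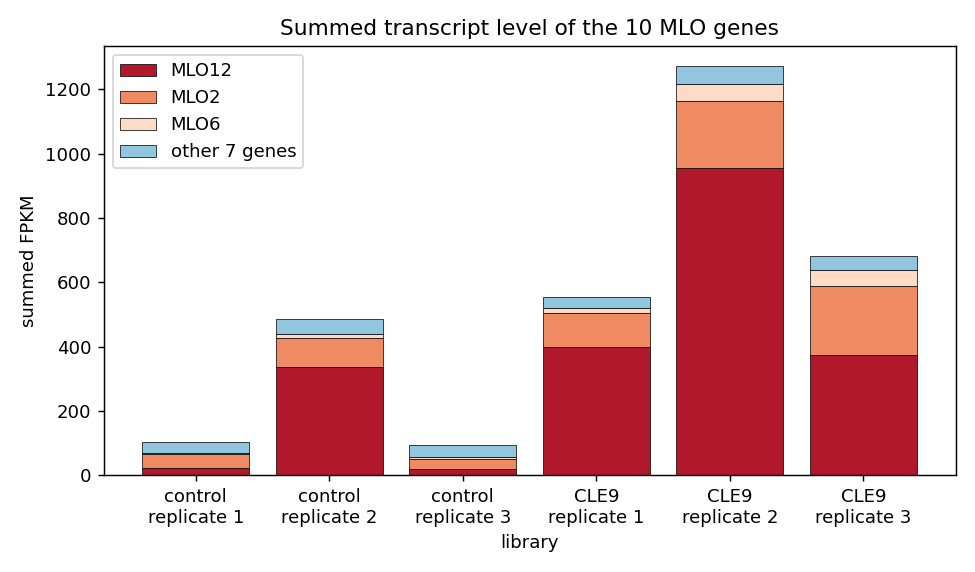
Summed FPKM of the 10 MLO genes in each library, with separate parts of the bar for MLO12, MLO2, MLO6 and the other 7 genes together. The part of the other 7 genes stays between 32.1 and 53.9 FPKM, while the sum of MLO2, MLO6 and MLO12 ranges from 56.5 to 1218 FPKM.

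The median log2 change of MLO2, MLO6 and MLO12 was 2.32, that of the other 6 tested members 0.22, and that of all genes tested -0.055. In pairs 1, 2 and 3 the median of the 3 genes was 1.89, 1.5 and 3.00, against 0.19, 0.10 and 0.29 for the other 6. With MLO3 left out, the median of the remaining 5 was 0.075, 0.075 and 0.065 in the 3 pairs. MLO2, MLO6, MLO12 and 4 of the other 6 were higher with CLE9 in every pair, as were 19.8% of all genes tested. MLO10 and MLO11 were lower in every pair, as were 26.0% of all genes. These are descriptions, since the members were chosen with results of these data known.

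The members also differed in how far the libraries numbered 2 departed from the others of their group. The departure of replicate 2 from the mean of replicates 1 and 3 was 1.51 log2 units among the controls and 1.40 among the CLE9 libraries for MLO8. It was -1.36 and -1.55 for MLO10 and 0.43 in both groups for MLO1. For MLO12 the departures were 3.93 and 1.30, for MLO2 1.27 and 0.50, and for MLO6 1.2 and 0.83. MLO2, MLO6 and MLO12 thus departed more in the controls than with CLE9, while MLO8, MLO1 and MLO3 (0.32 and 0.30) departed by nearly the same amount in both. MLO4 also departed unequally, by 0.015 in controls and -0.39 with CLE9, and so more with CLE9. The departures of MLO11 were -0.44 and -0.50. These differences between members were not tested.

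**Figure D4:**
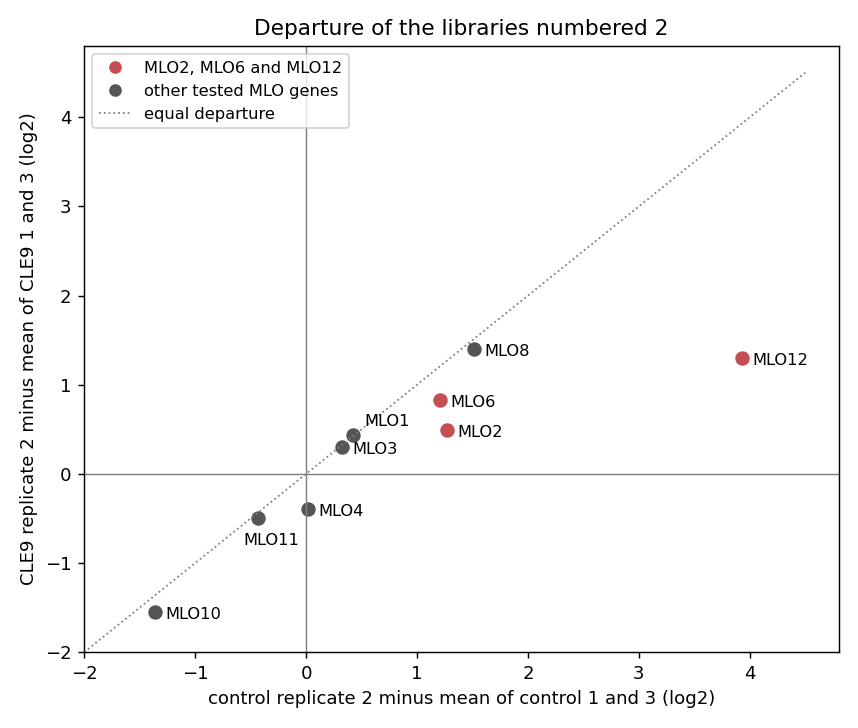
Departure of replicate 2 from the mean of replicates 1 and 3 on the log2(FPKM + 1) scale, in controls (horizontal axis) and with CLE9 (vertical axis), for the 9 tested MLO genes. MLO12, at 3.93 and 1.30, lies farthest from the dotted line of equal departure, followed by MLO2 and then by MLO4 and MLO6.

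Touch and wounding genes, immune response genes and root markers also shifted in these libraries. All 9 touch and wounding genes were above both other controls in control replicate 2, and their summed level was 787, 4468 and 735 FPKM in water, against 1790, 5071 and 1754 FPKM in CLE9. The touch genes did not all differ in the same direction: TCH3 was at 335, 1441 and 309 FPKM in water, against 1436, 1731 and 1350 FPKM in CLE9, while TCH4 was at 397, 1234 and 374 FPKM in water, against 95.1, 947 and 133 FPKM in CLE9. All 12 early immune genes were above both other controls there too, with sums of 90.8, 646 and 96.2 FPKM in water, against 732, 1761 and 647 FPKM in CLE9. Both lists were chosen with earlier results of these data known, so their counts are descriptions. When blocked, 7 of these 12 immune genes rose and 0 of the 9 touch genes passed, where 1.75% of all genes were called higher. Without both libraries numbered 2, limma called all 12 immune genes and 6 of the 9 touch genes higher and 1 touch gene lower, where 8.41% of all genes were called higher and 2.95% lower. Of the 6 root markers, 5 were below both other controls in control replicate 2 and 4 were below both other CLE9 libraries in CLE9 replicate 2. Their sums were 748, 672 and 758 FPKM in water, against 501.5, 222 and 535 FPKM in CLE9. Most of each sum was PYK10, at 619, 616 and 621 FPKM in water, against 411, 165 and 409.7 FPKM in CLE9. SCR of the same list was higher in every CLE9 library, at 20.7, 22.1 and 19.2 FPKM in water, against 23.3, 25.0 and 32.3 FPKM in CLE9. TCH3, TCH4, PYK10 and SCR were singled out after their values were seen. Shoot markers summed to 6959 FPKM in CLE9 replicate 2 and to 18464 FPKM or more in the other libraries. The part of these shifts in the MLO values was not tested. In whole seedlings, fewer cells of a type and less RNA per cell cannot be told apart.

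Other MLO genes of Arabidopsis are not members of the set. MLO5 was listed at 0 in all 6 libraries. MLO7, which acts in the synergid cells that receive the pollen tube, was at 0.615 to 0.777 FPKM in controls and 0.436 to 0.903 FPKM with CLE9. MLO9, which acts with MLO5 in pollen tube guidance, was at 0.575 to 0.770 and 0.290 to 0.550 FPKM, and MLO13 was at 0.726 to 0.903 and 0.466 to 0.794 FPKM. These 4 had means under 1 FPKM and were not tested.

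Resistance of mlo mutants to powdery mildew depends on genes of the cell wall and secretion response. A list of 15 genes linked to powdery mildew entry or to mlo resistance was chosen with earlier results of these data known. In it 0 passed limma with group only or with the block. Without both libraries numbered 2, 9 were called higher, where 8.41% of all genes were. The median log2 change of the list was 1.35, beside -0.055 over all genes tested. These are descriptions. PEN3, a transporter of the plasma membrane, was at 114, 496 and 123 FPKM in water, against 728, 1130.3 and 985 FPKM in CLE9 (log2 change 2.28 ± 0.61, limma adjusted p = 0.355, or 0.0638 blocked). PEN2, a glucosidase that activates indole glucosinolates, was at 90.5, 376 and 86.7 FPKM in water, against 566, 531 and 732 FPKM in CLE9. As in MLO12, control replicate 2 stood well above the other controls in both genes, and the groups did not overlap.

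PEN1, a syntaxin of the secretion machinery at the entry site, was at 31.0, 72.9 and 30.0 FPKM in water, against 64.6, 285 and 79.4 FPKM in CLE9. Its groups overlapped, since CLE9 replicate 1 lay below control replicate 2. The log2 change was 1.46 ± 0.65 (SE, limma adjusted p = 0.600, or 0.0523 blocked). PMR4, the callose synthase of the wall deposits at entry sites, was at 8.85, 9.98 and 8.49 FPKM in water, against 16.6, 18.8 and 14.9 FPKM in CLE9. The libraries numbered 2 did not depart far for PMR4, and its ratio was 1.88, 1.88 and 1.76 in the 3 pairs (log2 change 0.81 ± 0.16, limma adjusted p = 0.255, or 0.0546 blocked).

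The transcription factor gene MYB51 and its downstream enzyme gene CYP81F2, both of indole glucosinolate synthesis, had log2 changes of 2.82 ± 1.18 and 3.68 ± 1.60 (SE, limma adjusted p = 0.572 and 0.589, or 0.0523 and 0.0535 blocked). CYP81F2 was at 2.97, 166 and 3.65 FPKM in water, against 85.9, 593 and 124.0 FPKM in CLE9. MYB51 was at 7.33, 126 and 7.76 FPKM in water, against 92.7, 347 and 98.7 FPKM in CLE9. The groups of both genes overlapped through control replicate 2. The log2 change of PEN2 was 2.06 ± 0.61, and those of the 9 genes of the list not named here lay between -0.0035 and 1.63.

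Of the 7 calmodulin genes, whose products bind the tail of MLO proteins, 0 passed limma with group only or blocked, and 1 (CAM2) was called higher without both libraries numbered 2, where 8.41% of all genes were. Their median log2 change was 0.12. CAM2 had the largest, 0.86 ± 0.38 (SE, limma adjusted p = 0.599, or 0.132 blocked), at 55.8, 119 and 53.4 FPKM in water, against 138, 159 and 98.4 FPKM in CLE9. The groups overlapped for CAM2 and did not for CAM3 (73.2, 78.6 and 77.8 against 115.6, 99.4 and 97.9 FPKM). CAM1 and CAM4 had changes of 0.19 and 0.12. Calmodulin genes are close copies of each other, so reads can have been divided among them in the authors' counting.

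FERONIA is a receptor kinase of the cell surface that acts upstream of MLO7 in synergids. It was at 109.5, 156 and 115 FPKM in water, against 100.4, 165 and 103.5 FPKM in CLE9 (log2 change -0.066, 95% interval -0.75 to 0.62, limma adjusted p = 0.967). In a list of 7 genes of this receptor module 0 passed limma with group only or blocked. The gene of RALF23, a peptide bound by FERONIA, was at 114, 79.0 and 153 FPKM in water, against 70.4, 42.8 and 68.1 FPKM in CLE9, a log2 change of -0.90 ± 0.33 (SE, limma adjusted p = 0.499, or 0.0780 blocked). It was called lower without both libraries numbered 2 (adjusted p = 0.0277), where 2.95% of all genes were. The receptor kinase gene HERK1 was at 11.6, 17.0 and 13.9 FPKM in water, against 19.6, 22.6 and 18.6 FPKM in CLE9, and its groups did not overlap. The receptor kinase gene THE1 and the FERONIA co-receptor gene LLG1 had log2 changes of -0.35 and 0.39, with overlapping groups.

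**Figure D5:**
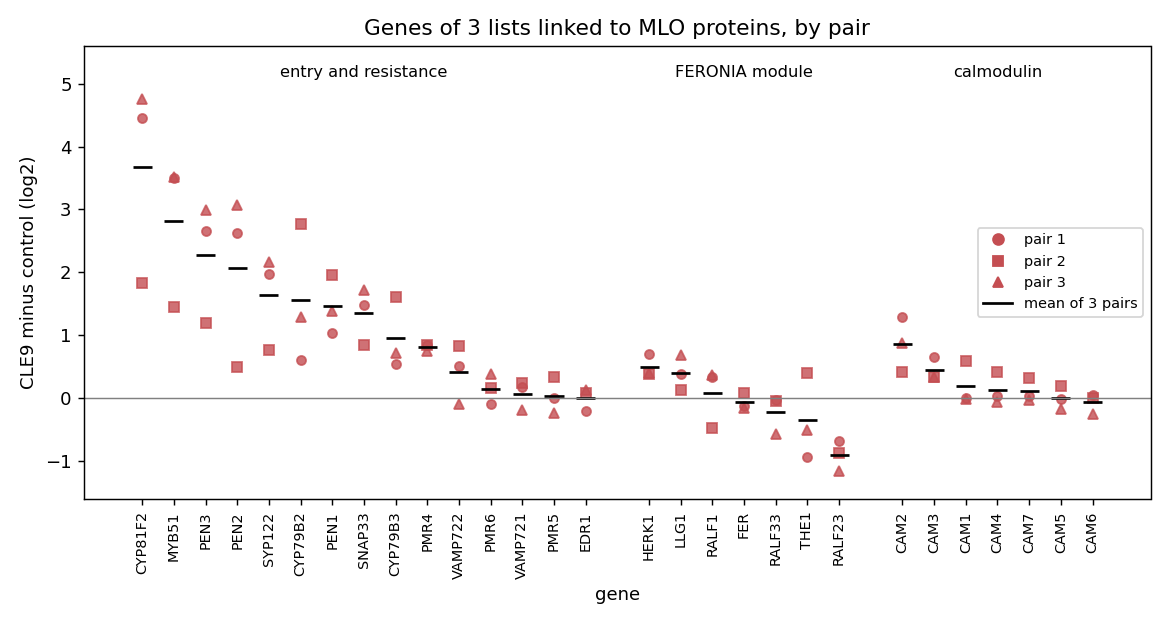
Difference between CLE9 and control in each same-numbered pair (symbols) and its mean (black lines), on the log2(FPKM + 1) scale, for the lists of mildew entry and resistance genes, the FERONIA module and calmodulins. The entry and resistance genes have a median of 1.35, the FERONIA module -0.066 and the calmodulins 0.12.

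The genes with the pattern most like MLO2, MLO6 and MLO12 were taken by Pearson correlation of log2(FPKM + 1) over the 6 libraries, among the genes tested and outside the MLO family. The closest to MLO12 were ckl7 (r = 0.999), AT1G53430 (0.998) and PP2-A5 (0.998). PP2-A5 was also alike in size, at 23.7, 232 and 20.2 FPKM in water, against 276, 457 and 237 FPKM in CLE9. The range of ckl7 was far smaller, from 20.5 to 29.2 FPKM over all libraries. The closest to MLO2 were CPK9 (r = 0.999), AT5G08310 (0.996) and AT4G30260 (0.994), and those to MLO6 were SPL1 (0.997), CRK6 (0.996) and HCT (0.995). CPK9 did not overlap between groups, from 39.4 to 64.6 FPKM in controls and from 66.9 to 90.5 FPKM with CLE9. SPL1 stayed between 25.7 and 31.6 FPKM in all libraries. AT5G08310 reached at most 1.72 FPKM and CRK6 at most 2.70 FPKM. Over 6 points that share the departure of the libraries numbered 2, an r over 0.95 was reached by 478 genes with MLO12 (2.69% of those tested), 164 with MLO2 (0.921%) and 108 with MLO6 (0.607%).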

How the data were processed

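RNA abundance in 6 libraries of whole seedlings was read from a deposited table of FPKM values for 27416 genes, 1 column per library, per the file headers. Per the labels, RNA was extracted with TRIzol and libraries were made with the NEBNext Ultra kit. Per the submitters' processing notes, the tools were DESeq2 1.16.1, HISAT2 2.0.5, CASAVA 1.8, featureCounts 1.5.0-p3 and StringTie 1.3.3b with the build TAIR10, and no role is given for any of them, so which one the authors used for FPKM is not stated.

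The table holds no counts. Depth was estimated from 4925 genes with 1 exon in RefSeq. Only 36.6% to 46.6% of their low values were whole within 0.1 fragments (20% by chance), so reads could not be recovered and depths are approximate.

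Values were analysed as log2(FPKM + 1), which understates changes of low genes. The 17812 genes whose mean reached 1 FPKM entered limma 3.58.1 (R 4.3.3; group only, empirical Bayes with a trend, two-sided, Benjamini-Hochberg over all genes tested, called at adjusted p under 0.05). The estimates of the fit were tested on simulated data, for group only at a smaller spread than in these libraries. Alternatives were a pseudocount of 0.1, no filter, quantile and median-of-ratios scaling, array weights, the replicate block, and leaving out single libraries or both numbered 2. Same-numbered libraries correlated in their deviations from the group means at 0.545, 0.743 and 0.583, all over 0.1, so the numbers were taken as pairs and blocked values are given beside the others, though no label says what a shared number means. Control replicates 1 and 3 each correlated more with the CLE9 library of the other's number (0.664 and 0.620). The correlations thus separate the libraries numbered 2 from the others and do not tell number 1 from number 3.

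The members and lists were chosen with earlier results of these data known. Named genes were all MLO genes (values of MLO15 are not reported here), PEN1, PEN2, PEN3, FER, the 4 smallest blocked p-values of each list and the 3 genes most correlated with each clade gene. Sequences come from RefSeq TAIR10.1 by locus identifier. Gene starts or ends in the table equalled those of RefSeq for 47.0% to 49.9% of genes per chromosome.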

Additional observations from a re-analysis of the deposited data

How the results depend on the processing

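Of 144 values of the 9 tested members under 16 alternatives, 126 kept their direction and their side of the threshold, 13 became called and 5 changed sign. The 16 include the blocked fits without 1 pair. The alternatives share libraries, and the fits without pair 2 and without both libraries numbered 2 use the same ones. The 13 are therefore not independent calls. MLO2, MLO3, MLO4, MLO6 and MLO12 were higher with CLE9 under every alternative. Their groups did not overlap, so leaving out or weighting libraries could not have changed this direction. All 5 sign changes came from leaving out 1 library. The range over all alternatives was -0.072 to 0.21 for MLO1, -0.90 to 0.072 for MLO10, -0.27 to 0.040 for MLO11 and -0.090 to 0.88 for MLO8. Members called numbered 5 with array weights, 1 with the replicate block and 3 without both libraries numbered 2. In these fits 27.4%, 1.99% and 11.4% of all genes were called. Without a single library 0 to 1 members were called. The 1 was MLO12 without control replicate 2. Over all genes limma called 1 gene with group only, 4884 with array weights, 3 without a filter, 2 after quantile normalization, 355 with the replicate block, 2024 without both libraries numbered 2, and 0 to 204 without a single library. The block without 1 pair, added after seeing the data, gave 0 to 1870 calls and 0 to 3 members, the highest of each without pair 2. The median of MLO2, MLO6 and MLO12 minus that of the other 6 was 2.1, and it was 2.80 with array weights and 1.89 to 2.54 without a single library. The causes were not tested.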
